A study of Mus musculus with 8 samples.

Results

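Small RNA of sperm from 8-month-old Balb/c mice was read at a short intergenic locus on the minus strand of mouse chromosome 2, where 206 overlapping fragments listed under piRNA names lay between positions 69355538 and 69355636 (mm10). Each name was kept once, at its first listed locus by chromosome and start in the table, and the members were the names kept inside a short fixed window around these positions. They were 206 of 17375 names in the table that compares an shRNA against Hsp90aa1 with a negative-control shRNA. In the table of MC-LR and control libraries used here, none of 13450 names was kept there and none of the 206 names was listed at any locus. The nearest listed loci on chromosome 2 were 3227.319 kb below and 3657.087 kb above the window in both tables. The results below therefore come from 4 libraries, 2 with the Hsp90aa1 shRNA and 2 with the negative-control shRNA, lettered A and B in each group. The other 4 libraries of the series, MC-LR A and B and control A and B, give no value for this locus. All groups share the strain and age. The level of Hsp90aa1 itself has no value among these names, so the effect of the shRNA on its target was not analysed here. The labels give no vector, promoter or delivery route for the shRNAs and do not tie A and B to different animals. The p-values thus reflect the spread of these libraries alone, and that spread may be technical.

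piRNAs are small RNAs of germ cells that guide PIWI proteins, in large part against transposable elements. A long single-stranded precursor is cut, the cut end becomes the 5′ end of the piRNA inside a PIWI protein, and the 3′ end is then trimmed back to a length that the protein protects. Names that share a 5′ end and differ in length are thus the form that a trimmed series would take, although degradation fragments of any RNA can look alike. Hsp90aa1 encodes the cytosolic chaperone HSP90 alpha, which is needed for normal piRNA production in the fetal mouse testis, and HSP90 proteins help to load small RNAs into Argonaute family proteins.

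The locus lies outside annotated genes. No GENCODE M21 or RefSeq gene of GRCm38 overlapped the members on either strand. The nearest gene was Abcb11, the bile salt export pump, which lies 12.9 kb below on the minus strand, and on the other side were the RefSeq noncoding gene Gm36393 at 23.2 kb and Dhrs9, a retinol dehydrogenase, at 24.8 kb. The members fell into 2 sets. In 8 names the 5′ end was the same base, 69355567, and the lengths were 18, 19, 20, 21, 22, 24, 27 and 30 nt. The other 198 names, of 19 to 34 nt, covered a stretch of 63 nt from 69355574 to 69355636, with 31 different 5′ ends and 32 different 3′ ends. On the transcribed strand this broad stretch is upstream of the shared 5′ end, and 6 positions, 69355568 to 69355573, were covered by no name. Up to 192 names overlapped at 1 position. Nested names held very unequal numbers of reads (20 to 5619 reads in negative-control shRNA B among the 8 names), so a read was not counted at every name that it overlaps.

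**Figure D1:**
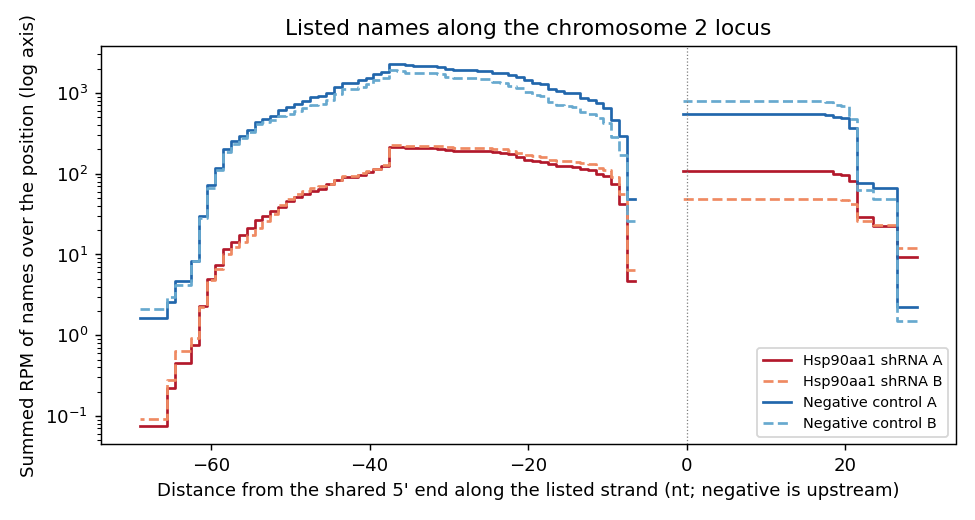
Summed RPM of the listed names over each position (y axis, log scale) against the distance from the shared 5′ end in nt (x axis, negative is upstream on the minus strand), with 1 line for each library. Both Hsp90aa1 shRNA lines lie below both negative-control lines except at the far right, where the 30 nt name alone reaches.

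The comparison asks how the fragments of this locus differ with the shRNA against Hsp90aa1. Values are RPM, the reads of a name scaled to those of its library. The library totals were 13360928 and 10832261 reads for Hsp90aa1 shRNA A and B, against 9710383 and 13380630 reads for negative control A and B. The summed level of the 206 members was 325 and 276 RPM in the Hsp90aa1 shRNA libraries, against 2854 and 2715 RPM in the negative-control libraries. That is 301 ± 34.5 against 2785 ± 98.0 RPM (SD, n = 2 each), 9.26-fold lower, and the groups did not overlap. An exact permutation test of 2 libraries against 2 cannot go below the two-sided p = 0.333 obtained here. Of 204 members that reached a mean of 1 RPM in a group, 203 fell and 1 rose at a limma adjusted p under 0.05. Among all 16857 tested names, 99.5% fell and 0.219% rose, so the share of falling members is near the background. The 2 groups did not overlap for any of the 206 members, 205 lower and 1 higher with the Hsp90aa1 shRNA. Of all 17375 names, 99.8% were lower and 0.213% higher without overlap, and the groups overlapped for 1 name. How names came to be listed is not given. If they were listed for a difference between the groups, these counts and calls would follow in part from the listing, which was not tested. The members' median log2 fold change was −2.27, beside −1.66 over all tested names. Fold changes are on the log2(RPM + 1) scale, which understates the change of low names. In a bulk sample, fewer cells of a type and less RNA per cell cannot be told apart.

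The summed RPM of the whole list was lower in the Hsp90aa1 shRNA libraries, at 4.88% and 3.16% of their totals, against 27.7% and 32.3% of the negative-control totals. Some names at different loci hold the same reads (given with the other loci of the members). A read can therefore count more than once in these sums, which are not exact parts of a library. Within the list the members made up 0.666% and 0.876% of the summed level in the Hsp90aa1 shRNA libraries and 1.03% and 0.842% in the negative-control libraries, and these ranges overlap. When libraries were scaled within the list with TMM factors (edgeR), the median of all names moved from −2.83, in edgeR on library totals, to −0.03. None of the 203 falling members then passed, where 0.125% of all tested names passed as lower. At an unadjusted p under 0.05, 47 members were lower, but the share of all names at that threshold was not counted. On library totals edgeR called 203 members lower, beside 99.1% of all names. With TMM factors in limma 0 members passed as lower, where 0.142% of all names did so and 0.208% passed as higher, and at equal summed RPM of the list 0 members, where 0.231% of all names did so. With DESeq2 size factors 1 member passed as lower, beside 0.724% of all names. In edgeR with TMM factors, 29 of the 203 members had a value above 0. The median of the tested members was −0.78 there, beside −0.03 over all tested names, and this difference was not tested. Rises over the whole table were little changed by scaling. The main test called 37 names higher, and limma with TMM factors 35. At equal summed RPM, with edgeR TMM factors and with DESeq2 size factors the count was 37 each. The member that rose, piR-mmu-192405, passed as higher in all 17 alternative settings.

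That member is the longest of the 8 names with the shared 5′ end (2:69355538–69355567, 30 nt). It had 9.36 and 12.0 RPM in Hsp90aa1 shRNA A and B, against 2.27 and 1.49 RPM in negative-control A and B. Both Hsp90aa1 shRNA libraries were above both negative-control libraries, by 5.68-fold on the means (10.7 ± 1.87 against 1.88 ± 0.545 RPM; SD, n = 2 each; log2 fold change 2.02 ± 0.42 SE, limma adjusted p = 0.00151). The values rest on 125 and 130 reads in the Hsp90aa1 shRNA libraries and 22 and 20 reads in the negative-control libraries. Over its alternatives the log2 fold change lay between 1.19 and 5.51 and the adjusted p between 4.53e-13 and 0.0182.

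The other 7 names with this 5′ end fell. The 22 nt name piR-mmu-48774235 (2:69355546–69355567) was the most abundant member of the locus, with 52.8 and 16.5 RPM in the Hsp90aa1 shRNA libraries, against 291 and 420 RPM in the negative-control libraries. The groups were far apart although Hsp90aa1 shRNA A was above B (log2 fold change −3.51 ± 0.71 SE, limma adjusted p = 0.00150). The 21 nt name piR-mmu-48768961 had 14.3 and 4.80 RPM in the Hsp90aa1 shRNA libraries and 128 and 206 RPM in the negative-control libraries, the deepest fall of the set (−4.12 ± 0.66 SE, adjusted p = 6.96e-04). Below 21 nt the order was the same, with Hsp90aa1 shRNA B the lowest library throughout. The 20 nt name piR-mmu-48724456 had 4.34 and 0.923 RPM with the Hsp90aa1 shRNA and 10.5 and 19.7 RPM with the negative control. The 19 nt name piR-mmu-48703568 had 7.78 and 0.739 RPM with the Hsp90aa1 shRNA and 34.1 and 71.7 RPM with the negative control. The 18 nt name piR-mmu-48966531 had 1.05 and 0.0923 RPM with the Hsp90aa1 shRNA, the second from 1 read, and 5.15 and 14.5 RPM with the negative control.

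The 2 names between 22 and 30 nt fell less. The 24 nt name piR-mmu-15934902 stood at 6.21 and 2.95 RPM with the Hsp90aa1 shRNA, against 9.99 and 13.6 RPM with the negative control (log2 fold change −1.25 ± 0.48 SE, limma adjusted p = 0.0279). The 27 nt name piR-mmu-15934891 stood at 13.3 and 11.2 RPM with the Hsp90aa1 shRNA, against 64.4 and 47.7 RPM with the negative control (−2.10 ± 0.55 SE, adjusted p = 0.00469). Their groups did not overlap, but the calls were not stable. The 24 nt name did not pass without negative-control A, negative-control B or Hsp90aa1 shRNA B (adjusted p = 0.0862, 0.149 and 0.153), nor the 27 nt name without negative-control A (0.109). With TMM factors both values lay above 0, at 1.43 and 0.67, as did that of the 20 nt name, at 0.22.

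Ratios inside a library do not depend on the scaling. For every 100 reads of the 22 nt name there were 17.7 and 72.6 reads of the 30 nt name in Hsp90aa1 shRNA A and B, against 0.778 and 0.356 in negative-control A and B. The lowest Hsp90aa1 shRNA ratio was thus well above the highest negative-control ratio. For the 24 nt name the figures were 11.8 and 17.9 with the Hsp90aa1 shRNA, against 3.43 and 3.24 with the negative control, and for the 27 nt name 25.2 and 67.6, against 22.1 and 11.4. The names under 22 nt did not move one way. For the 21 nt name the figures were 27.1 and 29.1 with the Hsp90aa1 shRNA, against 43.9 and 49.1 with the negative control, while for the 20 nt name they were 8.22 and 5.59, against 3.61 and 4.70, with no overlap in either case. For the 19 nt name they were 14.7 and 4.47 with the Hsp90aa1 shRNA, against 11.7 and 17.1 with the negative control, and for the 18 nt name 1.98 and 0.559, against 1.77 and 3.45, and both overlap. Names of 18 to 22 nt made up 73.5% and 46.9% of the set in the Hsp90aa1 shRNA libraries, against 86.0% and 92.1% in the negative-control libraries. The 30 nt name made up 8.57% and 24.4% with the Hsp90aa1 shRNA, against 0.415% and 0.188% with the negative control. These ratios were chosen after the values of the names were seen, and with 2 libraries against 2 no exact test of them can reach 0.05.

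**Figure D2:**
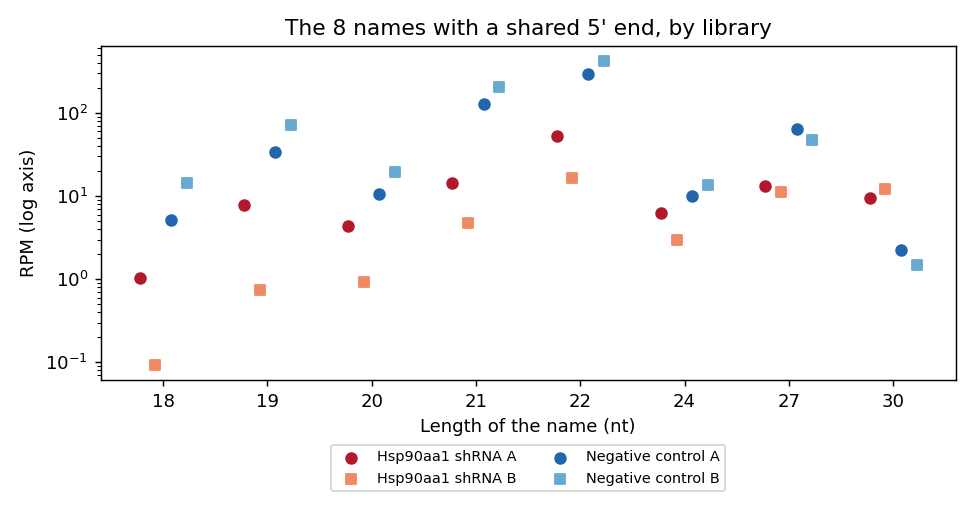
RPM (y axis, log scale) of the 8 names with a shared 5′ end, by length in nt (x axis), with 1 point for each library. The Hsp90aa1 shRNA points lie below the negative-control points at 18 to 27 nt and above them at 30 nt (9.36 and 12.0 against 2.27 and 1.49 RPM).

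Other places in the table show how often a longer name moves apart from shorter names with the same start. There were 283 sets of at least 5 tested names, each listed at 1 locus, that share a 5′ end and run from at most 22 nt to at least 27 nt. In 206 of them the longest name had a higher log2 fold change than the shortest, with a median difference of 0.56. At the shared 5′ end on chromosome 2, where 7 names are listed at 1 locus each, the difference was 5.72, which ranked 1 of the 283. It was taken between the 30 nt name and the 19 nt name piR-mmu-48703568, whose reads are also those of names on chromosome 5 (given with the other loci of the members). The set was described because its longest name rose, so the rank restates that rise and is no separate observation. Of the 37 names of the table that rose, 9 had 30 nt, out of 1236 tested names of that length, and 1 shared its 5′ end with another tested name listed at 1 locus. That name is piR-mmu-192405, whose log2 fold change ranked 6 of the 37.

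In the broad stretch the 5′ end at 69355604 stood out by level. Its 7 names, of 25 to 31 nt, came to 89.6 and 97.4 RPM with the Hsp90aa1 shRNA, against 448 and 350 RPM with the negative control. The sum was 4.26-fold lower, while the whole broad stretch was 9.54-fold lower (216 and 227 RPM against 2308 and 1921 RPM). These 7 names were therefore a larger part of all member RPM with the Hsp90aa1 shRNA, 27.6% and 35.2%, against 15.7% and 12.9% with the negative control, and the groups did not overlap. The next 5′ ends by level had the opposite tendency. The 12 names starting at 69355606, 2 bases upstream, came to 8.16 and 6.65 RPM with the Hsp90aa1 shRNA, against 168 and 180 RPM with the negative control, 23.5-fold lower. The 12 names at 69355610 were 19.7-fold lower and the 13 names at 69355611 were 16.7-fold lower. Each of these differences between 5′ ends was described and not tested.

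The names that carry the 69355604 end are among the most abundant members. The 29 nt name piR-mmu-56992447 (2:69355576–69355604) had 31.7 and 31.2 RPM with the Hsp90aa1 shRNA, against 133 and 101 RPM with the negative control (log2 fold change −1.85 ± 0.58 SE, limma adjusted p = 0.0109). The 30 nt name piR-mmu-25419018 (2:69355575–69355604) had 28.3 and 36.4 RPM with the Hsp90aa1 shRNA, against 119 and 80.8 RPM with the negative control (−1.58 ± 0.59 SE, adjusted p = 0.0239). The 28 nt name piR-mmu-48965800 (2:69355577–69355604) had 9.21 and 12.4 RPM with the Hsp90aa1 shRNA, against 70.5 and 62.8 RPM with the negative control (−2.53 ± 0.55 SE, adjusted p = 0.00193). The 3 names differ by 1 or 2 bases at the 3′ end. Over all 7 names with this 5′ end the fall did not follow length, with log2 fold changes of −1.56 at 25 nt, −2.26 at 26 nt, −2.69 at 27 nt and −2.49 at 31 nt for the other 4. With TMM factors all 3 values lay above 0, at 0.98, 1.29 and 0.28. The first name did not pass without negative-control A or B (adjusted p = 0.203 and 0.0798), nor did the second (0.309 and 0.111).

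The deepest falls of the broad stretch were in shorter names. The 19 nt name piR-mmu-49553920 (2:69355592–69355610) had 1.35 and 0.277 RPM with the Hsp90aa1 shRNA, from 18 and 3 reads, against 32.9 and 74.8 RPM with the negative control (−4.87 ± 0.55 SE, limma adjusted p = 5.82e-04). Its groups were the furthest apart of all members by log2 fold change on log2(RPM + 1). By the ratio of group means it was 66.3-fold lower. The 20 nt name piR-mmu-49572618, with 1 read in each Hsp90aa1 shRNA library, was 126-fold lower by that ratio. With DESeq2 size factors piR-mmu-49553920 was the only falling member that passed (−3.25, adjusted p = 0.00332). The 22 nt name piR-mmu-48797229 (2:69355585–69355606) had 1.497 and 0.277 RPM with the Hsp90aa1 shRNA and 22.3 and 31.1 RPM with the negative control. The 24 nt name piR-mmu-48892866 (2:69355603–69355626) had 1.05 and 0.369 RPM with the Hsp90aa1 shRNA and 22.7 and 24.4 RPM with the negative control. Both fell by a similar amount, −3.94 and −3.87. The 24 nt name piR-mmu-18161814 and the 28 nt name piR-mmu-15484074, which share the 3′ end at 69355598, fell with log2 fold changes of −3.80 and −3.58.

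Long names of the broad stretch also fell. The 31 nt name piR-mmu-49707079 (2:69355588–69355618) had 0.823 and 1.57 RPM with the Hsp90aa1 shRNA and 20.1 and 10.7 RPM with the negative control. The 34 nt name piR-mmu-49550150 (2:69355578–69355611), among the 3 longest members, had 0.225 and 1.38 RPM with the Hsp90aa1 shRNA and 23.3 and 4.93 RPM with the negative control. In both the library order within a group was the reverse of that in the shorter names, with Hsp90aa1 shRNA B above A and negative-control A above B. Where 99.5% of all tested names fell, all 196 tested names of the broad stretch did so, with log2 fold changes of −4.87 to −0.89. The 3 smallest falls among them, −0.98 to −0.89, were in names with 1 to 3 reads in each Hsp90aa1 shRNA library and 6 to 20 reads in each negative-control library. The 2 members under the filter, piR-mmu-49400835 and piR-mmu-57872913, stayed under 1 RPM in every library and were not tested.

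Over all members the fall was smaller in longer names, as it was over the table. The 29 members of 18 to 23 nt had a median log2 fold change of −3.17, the 97 tested members of 24 to 28 nt −2.27 and the 78 tested members of 29 to 34 nt −2.05. Over all tested names of the table the medians in these ranges of length were −2.02, −1.63 and −1.48. The members' medians were the lower in each range. In negative-control A and B members had more reads than the table at large, with medians of 74 and 80 reads per name, against 46 and 58 over all names. In Hsp90aa1 shRNA A and B they did not, with medians of 7 and 5 reads, against 10 and 5 over all names. There 126 of the 206 members had at most 10 reads in both libraries. A pseudocount weighs less on higher values and more on such low ones, and its part in the members' lower medians was not tested. Without a pseudocount, the median log2 ratio of group means was −3.63 for members and −2.86 for all names.

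**Figure D3:**
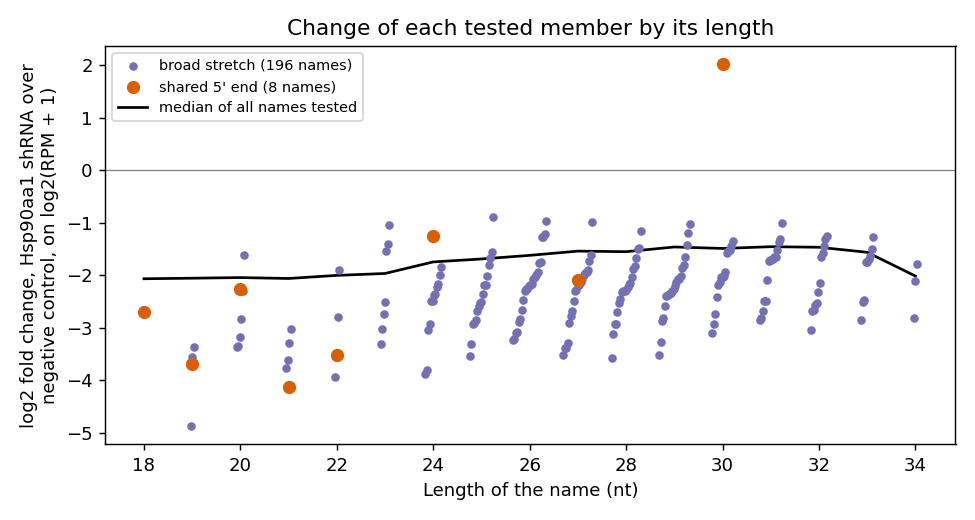
Log2 fold change of each tested member, Hsp90aa1 shRNA over negative control on log2(RPM + 1) (y axis), against its length in nt (x axis, points spread sideways for visibility), with the median of all tested names as a line. The 30 nt name with the shared 5′ end, at 2.02, is the only point above 0.

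Length also separated the libraries of each group. In negative-control A, compared with B, all 29 members of 18 to 23 nt were lower and all 79 members of 29 to 34 nt were higher. Between the Hsp90aa1 shRNA libraries the order was turned round, with A above B for 26 of the 29 short members and B above A for 59 of the 79 long ones. The same held over the table, where B was above A in 4038 of 4488 short names for the negative control and A above B in 4149 of them for the Hsp90aa1 shRNA. Names of 29 nt and more made up 38.7% and 59.4% of the members' level in Hsp90aa1 shRNA A and B, against 39.97% and 23.9% in negative-control A and B, and these ranges overlap. For the broad stretch alone the figures were 54.0% and 66.96% with the Hsp90aa1 shRNA and 49.3% and 33.7% with the negative control. The part of the library differences in the shallower fall of long names was not tested. The 30 nt name piR-mmu-192405 had the library order of most long names. Hsp90aa1 shRNA B was above A (12.0 and 9.36 RPM) and negative-control A above B (2.27 and 1.49 RPM). The part of the library differences in its rise was not tested.

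**Figure D4:**
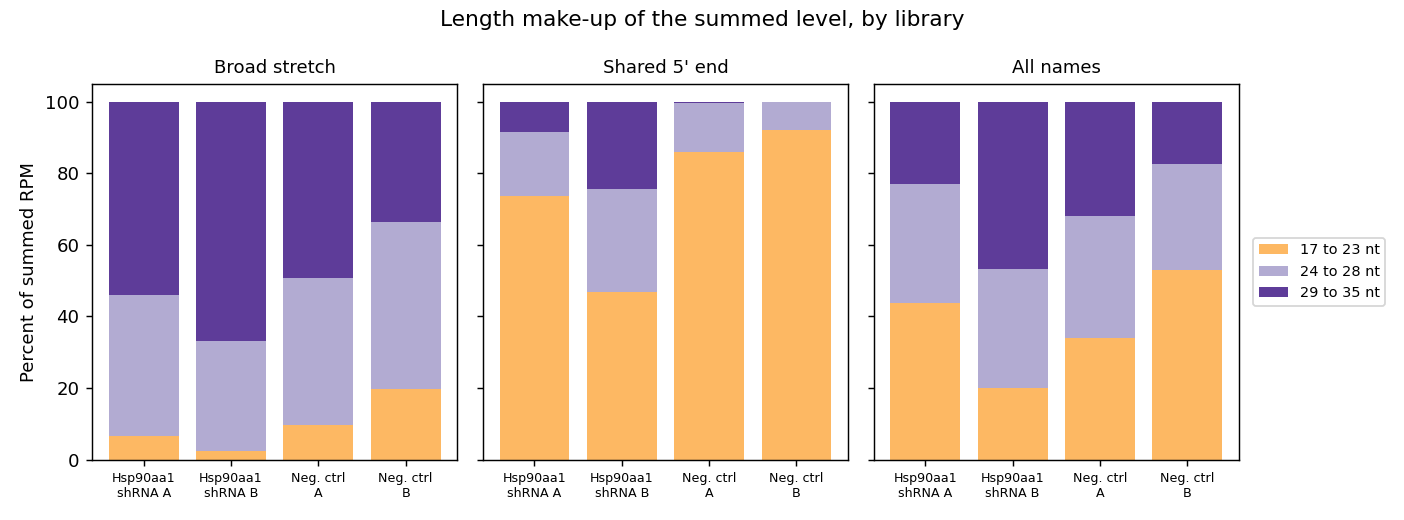
Percent of summed RPM (y axis) in names of 17 to 23, 24 to 28 and 29 to 35 nt, for each library (x axis), in the broad stretch, the shared 5′ end set and all names of the table. In the shared 5′ end set the 29 to 35 nt class is the 30 nt name, at 8.57% and 24.4% with the Hsp90aa1 shRNA and 0.415% and 0.188% with the negative control.

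Most members had no other listed locus, 205 of 206. The exception is the 18 nt name of the shared 5′ end, which is listed also at 5:26290347–26290364, outside genes, and at 5:33042450–33042467, inside the RefSeq noncoding gene Gm40278. At those places the table lists further names with the reads of members. The 19 nt member piR-mmu-48703568 and the 19 nt names piR-mmu-51138031 (5:26290347–26290365) and piR-mmu-49282008 (5:33042450–33042468) each had 104 and 8 reads in the Hsp90aa1 shRNA libraries and 331 and 959 reads in the negative-control libraries. The 20 nt member piR-mmu-48724456 and piR-mmu-48945924 (5:33042450–33042469) differed by 1 read in 1 library. The reads of the 18, 19 and 20 nt names can therefore not be assigned to chromosome 2, while for the 21, 22, 24, 27 and 30 nt names at this end no name elsewhere had the same reads within 1 read in every library. In the broad stretch, 9 further names of 18 to 22 nt are listed in the window and were kept on chromosome 1, between 34752940 and 34752962 on the plus strand, in an intron of Arhgef4. They came to 5.39 and 2.12 RPM with the Hsp90aa1 shRNA, against 86.5 and 141 RPM with the negative control. All 9 were called lower, beside 99.5% of all tested names. The log2 fold changes of the 9 names were −3.88 to −2.26. RefSeq places the noncoding gene Gm32790 over the same bases.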

How the data were processed

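The authors deposited 2 tables of RPM values, each with 4 libraries, a locus, a strand and a piRNA name. The submitters' processing notes name Bowtie2 2.2.3, HISAT2 2.1.0, HTSeq 0.6.0 and the build mm10, without the role of each tool. How a locus came to be listed is not given in the sources used here. The labels' protocols name Trizol for the RNA and an NEBNext Ultra kit for the libraries. The deposited RPM values resolved to whole reads (100% within a tolerance of 0.01 reads), from which reads and library totals were computed. A floor of 3 reads was 0.225 and 0.277 RPM in Hsp90aa1 shRNA A and B and 0.309 and 0.224 RPM in negative-control A and B. Floors cover counting error only, since reads carry no molecular identifiers. Of the members, 31 had at most 3 reads in both Hsp90aa1 shRNA libraries.

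Columns were matched to samples by group and replicate letter. Listed starts count from 0, and 1 was added for printing: 446 plus-strand loci then begin at a mature microRNA of RefSeq, against 68 without it. The main test was limma 3.58.1 (trend, robust) in R 4.3.3 on log2(RPM + 1), over the 16857 names that averaged 1 RPM or more in either group, with Benjamini-Hochberg adjustment over all of them at 0.05. edgeR 4.0.16 and DESeq2 1.42.0 on the recovered reads, other pseudocounts, filters and scalings, left-out libraries and a replicate block were alternatives. The limma, edgeR and DESeq2 fits were run on simulated reads in which most names did not change. In these data 99.5% of tested names fell, so that run does not bear on the calls given here. Python 3.11.15, pandas 2.3.3, numpy 2.4.6, scipy 1.17.1 and matplotlib 3.10.9 were used.

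The members and lists were chosen with earlier results of these data known. Names to print were the 6 most abundant members, those with the 4 largest and 4 smallest log2 fold changes, the most abundant name at each 5′ or 3′ end shared by 3 or more, the shortest and longest, and those against the majority (a selection of these, made with their values known, is given). The 19, 20 and 24 nt names of the shared 5′ end, piR-mmu-49572618, the 2 names under the filter and the names on chromosome 5 were added after their values were seen. Whether the RNA came from sperm was not checked here, since marker messenger RNAs have no values among these names.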

Additional observations from a re-analysis of the deposited data

How the results depend on the processing

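The count of falling members was 203 of 204 in the main test. It was 201 to 205 with other pseudocounts, no filter, edgeR on library totals or another kept locus, beside 98.5% to 99.5% of all names. With names listed at 1 locus it was 202, beside 99.4%. Without Hsp90aa1 shRNA A or B it was 201 and 202 of 204 tested, beside 90.4% and 85.1% of all tested names, and without negative-control A or B 194 of 202 and 199 of 203, beside 90.5% and 96.6%. With a filter of 10 RPM it was 74 of 75, beside 99.2%. Scaling within the list ended the calls. Members called lower were 0 with limma TMM factors, 0 at equal summed RPM, 0 with edgeR TMM factors and 1 with DESeq2 size factors. At an unadjusted p under 0.05, 53, 42, 47 and 34 members were lower, with no count over all names to set beside them. The median log2 fold change of members was −3.41 and −1.09 with pseudocounts of 0.1 and 5, −2.93 with the filter of 10 RPM and −3.60 in edgeR on library totals. It was −0.47, −0.42, −0.78 and −0.72 in the 4 scalings above, in that order, and −2.41 to −2.09 without any 1 library. The log2 ratio of the summed level, −3.21, was −0.35 with TMM factors and −0.28 at equal summed RPM.

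Some named members that fell had values above 0 in those 4 scalings, none past the threshold. In the same order these were 0.65, 0.72, 0.67 and 0.74 for piR-mmu-15934891, 1.23, 1.30, 1.43 and 1.48 for piR-mmu-15934902, and 0.035, 0.093, 0.22 and 0.24 for piR-mmu-48724456. For piR-mmu-56992447 they were 0.96, 1.03, 0.98 and 1.06, for piR-mmu-25419018 1.23, 1.29, 1.29 and 1.37, and for piR-mmu-48965800 0.21, 0.28, 0.28 and 0.37. With the replicate letter as a block (replicate block), 200 of 204 members fell, beside 96.4% of all tested names, and piR-mmu-15934902, piR-mmu-56992447 and piR-mmu-25419018 did not pass. Same-letter libraries deviated in opposite directions over all tested names (correlation −0.61), so a block with crossed letters was added after seeing the data, and 203 members fell with it, beside 99.8%. The planned MC-LR results and the difference between both effects gave no value, since no member is listed in that table.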
